A study of Mus musculus with 2 samples.

Results

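The Rab GTPases are the largest branch of the Ras superfamily of small GTPases, and each one marks particular membranes of the cell. A Rab cycles between a GTP-bound form, which sits on a membrane and recruits effectors that bud, move, tether or fuse vesicles, and a GDP-bound form, which is held in the cytosol by GDP dissociation inhibitors. Exchange factors switch a Rab on and GTPase activating proteins switch it off. In brain the family is best known for the Rab3 proteins of synaptic vesicles, while other members serve the route from the endoplasmic reticulum (ER) through the Golgi apparatus, the endosomes, the lysosome and the primary cilium.

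The genes described here were those whose symbol in the deposited feature list was Rab followed by digits, with an optional lower-case letter and digit after them, and 59 of 32285 genes met that rule. They were measured by Visium spatial transcriptomics in 2 coronal sections of mouse brain that hold the dorsal hippocampus of both sides, 1 from the mouse labelled Trained and 1 from the mouse labelled Untrained. Both animals were adult males of genotype ArcCreERT2::eYFPflx on a C57BL/6 background, a line in which a tamoxifen-dependent Cre under the promoter of the activity-regulated gene Arc can switch on a fluorescent reporter, so the control carried the same alleles. Trained means that a zone of a rotating arena gave a foot shock during training in active place avoidance, Untrained means exposure to that arena with the shock zone off, and both brains were taken after a retention test without shock.

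The section labelled Trained had 4152 spots under tissue and 29515831 unique molecular identifiers (UMIs, counted mRNA molecules), and the section labelled Untrained had 3738 spots and 59029131 UMIs. The median spot held 5950.5 and 13766.5 UMIs, so the second library was the deeper. Both libraries carry the same set of slide barcodes, 3448 of which marked a tissue spot in both. Of the spots assigned to the hippocampus, 43.4% in the Trained and 68.3% in the Untrained section had a UMI of Egr1, and 30.7% and 55.2% had one of Jun, 2 genes induced by neuronal activity. The study's own text gives the higher share to the trained mouse, so the libraries may have been exchanged at deposit, and each direction below is for the labels as deposited. With 1 section per group there is no replicate, so no test between the groups was possible. Intervals are 95% exact intervals for counting error alone. The left and right sides of each section, split at the median array column of its spots, are given as the spread within a section. That line need not be the midline of the brain, so a region can be split unevenly (dentate gyrus in Trained, 48 and 84 spots).

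Spots were sorted by joint clustering of both sections, without the Rab genes and their regulators, into 21 regions, of which 17 had at least 30 spots in each section and were compared. A region was named from its marker genes where they led it, and otherwise called by a leading gene. The markers named both the CA1 pyramidal layer and the CA1 neuropil simply CA1, and did not set them apart as layer and neuropil. The set of neuropil markers was itself highest in the CA1 pyramidal layer (4813 and 4712 CPM in Trained and Untrained). The hippocampus comprised the CA1 pyramidal layer, the CA1 neuropil, the dentate gyrus and a further hippocampal cluster led by Cabp7, Klk8 and Homer3, called the Homer3 region. CA3 was the best-scoring marker set of the Homer3 region, and the summed CA3 markers were highest there among the compared regions (804 and 574 CPM). It was not named CA3 because none of those markers was among its leading genes. The CA1 markers were all higher in the CA1 pyramidal layer than elsewhere, by a median of 9.15-fold and 11.3-fold in the Trained and Untrained sections, and the 7 myelin markers of white matter by 9.33-fold and 8.24-fold. The weakest case was the deep layer neocortex, where 6 of 7 markers were higher, by a median of 1.74-fold and 1.71-fold, and whose summed markers were highest in the habenula (613 and 484 CPM). The sections were not cut alike. A striatal region had 215 spots in the Trained and 27 in the Untrained section, and a Vgll3 region 3 and 174. A Visium spot covers several cells, so fewer cells of a type and less RNA per cell cannot be told apart in any level below. Levels are CPM, the UMIs of a gene in the pooled spots of a region or section, scaled to a total of 1000000 UMIs. This assay counts an mRNA once at its poly(A) end, so CPM was not scaled by transcript length. Other differences between genes in how fully they are counted were not tested, which limits comparisons of CPM between genes.

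**Figure D1:**
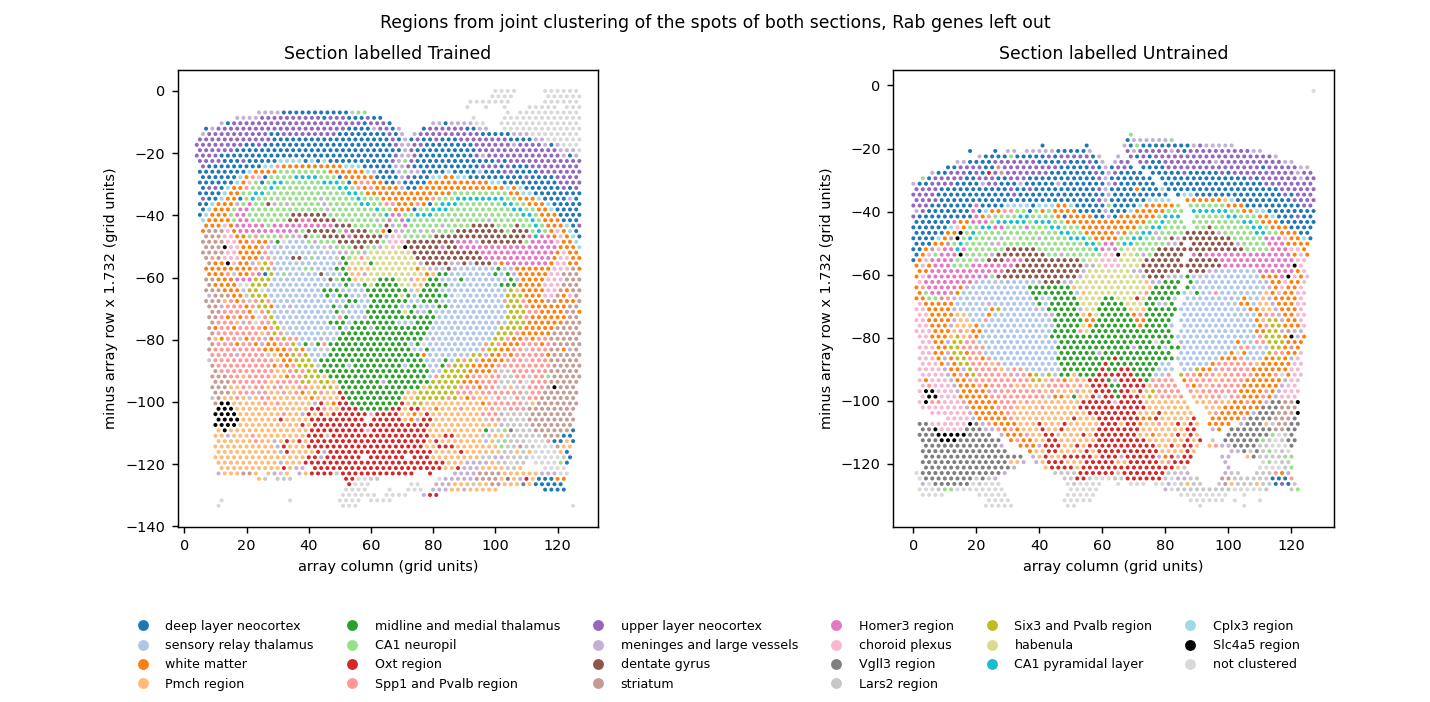
Spots of the section labelled Trained (left) and Untrained (right) at their array positions in grid units, coloured by region from joint clustering without the Rab genes, with unclustered spots in grey. The hippocampal regions, thalamus, neocortex and white matter lie in matching places on both sections, while the striatum (215 against 27 spots) and the Vgll3 region (3 against 174) each lie mostly in a single section.

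Promoter sequence is shown for 4 of the 8 members called region-restricted below. They were chosen to set a gene that peaked in the thalamus (Rab3c) and one that peaked in the hippocampus (Rab40b) beside a pair that both peaked in white matter (Rab31 and Rab33b). Each run covers 250 bases before and 50 bases after the most upstream transcript start that RefSeq lists on GRCm38.p6, written 5′ to 3′ on the strand of the gene, with capitals marking GGGCGG or its complement CCGCCC, the GC box bound by the Sp1 family. The positions are chr13:110280157-110280456 on the minus strand for Rab3c, chr11:121388202-121388501 on the minus strand for Rab40b, chr17:65772703-65773002 on the minus strand for Rab31 and chr3:51483716-51484015 on the plus strand for Rab33b.
Rab3c: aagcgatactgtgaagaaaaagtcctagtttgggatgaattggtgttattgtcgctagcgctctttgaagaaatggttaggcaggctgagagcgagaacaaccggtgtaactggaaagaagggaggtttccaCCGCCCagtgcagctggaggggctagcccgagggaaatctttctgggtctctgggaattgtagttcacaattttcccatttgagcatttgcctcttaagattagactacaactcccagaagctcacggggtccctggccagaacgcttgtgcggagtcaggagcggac
Rab40b: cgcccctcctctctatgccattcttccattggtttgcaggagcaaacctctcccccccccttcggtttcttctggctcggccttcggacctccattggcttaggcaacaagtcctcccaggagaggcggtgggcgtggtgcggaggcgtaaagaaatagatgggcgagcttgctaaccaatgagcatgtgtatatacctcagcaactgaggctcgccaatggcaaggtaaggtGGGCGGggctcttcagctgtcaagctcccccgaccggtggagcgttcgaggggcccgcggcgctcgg
Rab31: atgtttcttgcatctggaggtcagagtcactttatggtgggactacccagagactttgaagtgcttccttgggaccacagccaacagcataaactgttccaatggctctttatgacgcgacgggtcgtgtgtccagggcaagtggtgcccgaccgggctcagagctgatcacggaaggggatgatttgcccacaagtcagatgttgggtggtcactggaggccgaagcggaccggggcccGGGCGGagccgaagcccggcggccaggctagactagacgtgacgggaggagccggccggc
Rab33b: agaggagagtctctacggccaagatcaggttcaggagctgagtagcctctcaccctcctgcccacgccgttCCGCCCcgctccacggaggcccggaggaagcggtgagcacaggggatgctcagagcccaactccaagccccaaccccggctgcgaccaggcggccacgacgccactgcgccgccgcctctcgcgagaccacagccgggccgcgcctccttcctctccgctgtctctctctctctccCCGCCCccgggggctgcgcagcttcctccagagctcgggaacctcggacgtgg

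Promoters of the Rab family were rich in CpG. RefSeq entries were found for 48 of the 59 members, and their median was 20 CpG per promoter of 300 bases, against 7 over all 27025 promoters in the table. The GC box was present on either strand in 34 of the 48 (70.8%), against 35.9% of all promoters, and in all 6 of the region-restricted members that had an entry. Rab15 held 4 copies, Rab8b and Rab33b 2 each, and Rab3c, Rab40b and Rab31 a single copy. The median G and C content was 61.7% in the Rab promoters and 52.7% over all. The letters TGACG, the core of a cyclic AMP response element, were present in 52.1% of Rab promoters and 20.9% of all promoters, but in 1 of the 6 restricted members. The E-box letters CANNTG were as frequent in Rab promoters (70.8%) as in all (72.1%). A match is a run of letters in this window and no evidence of binding.

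Rab mRNA made up 0.496% of all UMIs in the Trained section (146393 UMIs) and 0.471% in the Untrained section (278021), and the median spot held 27 and 62 Rab UMIs. Of the 59 members, 58 had a UMI in both sections, and Rab17, an endosomal Rab of epithelia, had none in either, which allows a level of up to 0.102 and 0.0508 CPM by 3 counts of the section total, or 0.125 and 0.0625 CPM by the upper end of the exact interval. The 10 members with the most UMIs over both sections together carried 60.5% and 62.5% of Rab UMIs. By role, the ER and Golgi members carried 35.1% and 34.1%, the synaptic and secretory vesicle members 20.2% and 22.7%, the recycling endosome members 16.6% and 16.1%, and the early endosome members 10.1% and 9.52%.

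Summed over all members and scaled to all UMIs, the Rab level among the 17 compared regions was highest in the CA1 pyramidal layer, at 6196 CPM (interval 6018 to 6377) in the Trained and 5848 CPM (5728 to 5969) in the Untrained section. The Homer3 region (5828 and 5707 CPM) and the upper layers of the neocortex (5542 and 5348 CPM) followed in both. The choroid plexus, the epithelium that secretes cerebrospinal fluid, was the lowest at 2922 and 2571 CPM. White matter (3912 and 3774 CPM) and the CA1 neuropil (3815 and 3931 CPM) were the next lowest. Of the regions not compared, the Cplx3 region (41 spots) had 5731 CPM in Trained, above the upper layers of the neocortex, and the Slc4a5 region (24 spots) had 3733 CPM in Untrained, below white matter. These ranks depended in part on the mitochondrially encoded UMIs in the total, which made up 4.68% and 8.94% of the CA1 pyramidal layer, 8.55% and 13.7% of the Homer3 region and 23.2% and 26.9% of the CA1 neuropil. With them left out, the CA1 pyramidal layer led in Trained (6500 against 6373 CPM in the Homer3 region), the Homer3 region led in Untrained (6611 against 6421 CPM), and the CA1 neuropil (4964 and 5374 CPM) lay above the Spp1 and Pvalb region (4922 and 5337 CPM), while choroid plexus and white matter were still the lowest. The order of the 17 regions was close to the same in both sections (Spearman's rho 0.863 over 17 regions, which share 2 libraries).

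Rab3a, the main Rab of synaptic vesicles, was the most abundant member, at 715 CPM (706 to 725) in Trained and 849 CPM (842 to 857) in Untrained, with UMIs in 84.6% and 94.2% of spots. It was highest in the Six3 and Pvalb region in Trained (964 CPM) and in the Homer3 region in Untrained (1080 CPM), with the deep neocortex (934 CPM) and the upper neocortex (1066 CPM) close behind, so the lead was narrow. Its lowest levels were in choroid plexus (185 and 218 CPM) and white matter (318 and 450 CPM). Exons of Mpv17l2 overlap Rab3a on the opposite strand, as exons of other genes do for 13 members in all, and the assay keeps the strand.

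The Golgi pair Rab6b and Rab6a came next. Rab6b, the neuronal paralogue, had 422 CPM in Trained and 438 CPM in Untrained, and its highest level was in the Homer3 region in both (636 and 659 CPM) against 120 and 121 CPM in choroid plexus. Rab6a, the ubiquitous paralogue, had 377 and 369 CPM and led in the CA1 pyramidal layer (637 and 585 CPM). The profiles of the 2 genes over the 17 regions ran together (Spearman's rho 0.70 and 0.82), and that of Rab6b was the most alike between sections of all members (0.95).

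The remaining abundant members serve routes that every cell uses, and their levels varied less over regions. Rab2a, of the ER and Golgi route, had 340 and 279 CPM, and its highest region was the CA1 pyramidal layer in both sections (547 and 448 CPM). Rab7, which directs late endosomes to lysosomes, varied little, at 240 CPM in each section and 274 and 278 CPM in its highest region, 1.14 and 1.13 times its median region. Rab1a, of ER export, had 236 and 179 CPM, Rab11b and Rab11a of the recycling endosome 225 and 191 CPM and 118 and 115 CPM, Rab14 of the Golgi and endosomes 171 and 159 CPM, and Rab5a of the early endosome 155 and 126 CPM. Rab14, Rab5a and Rab7 shared the CA1 pyramidal layer as their highest region in both sections, and Rab11a led in the habenula in both (149 and 143 CPM).

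**Figure D2:**
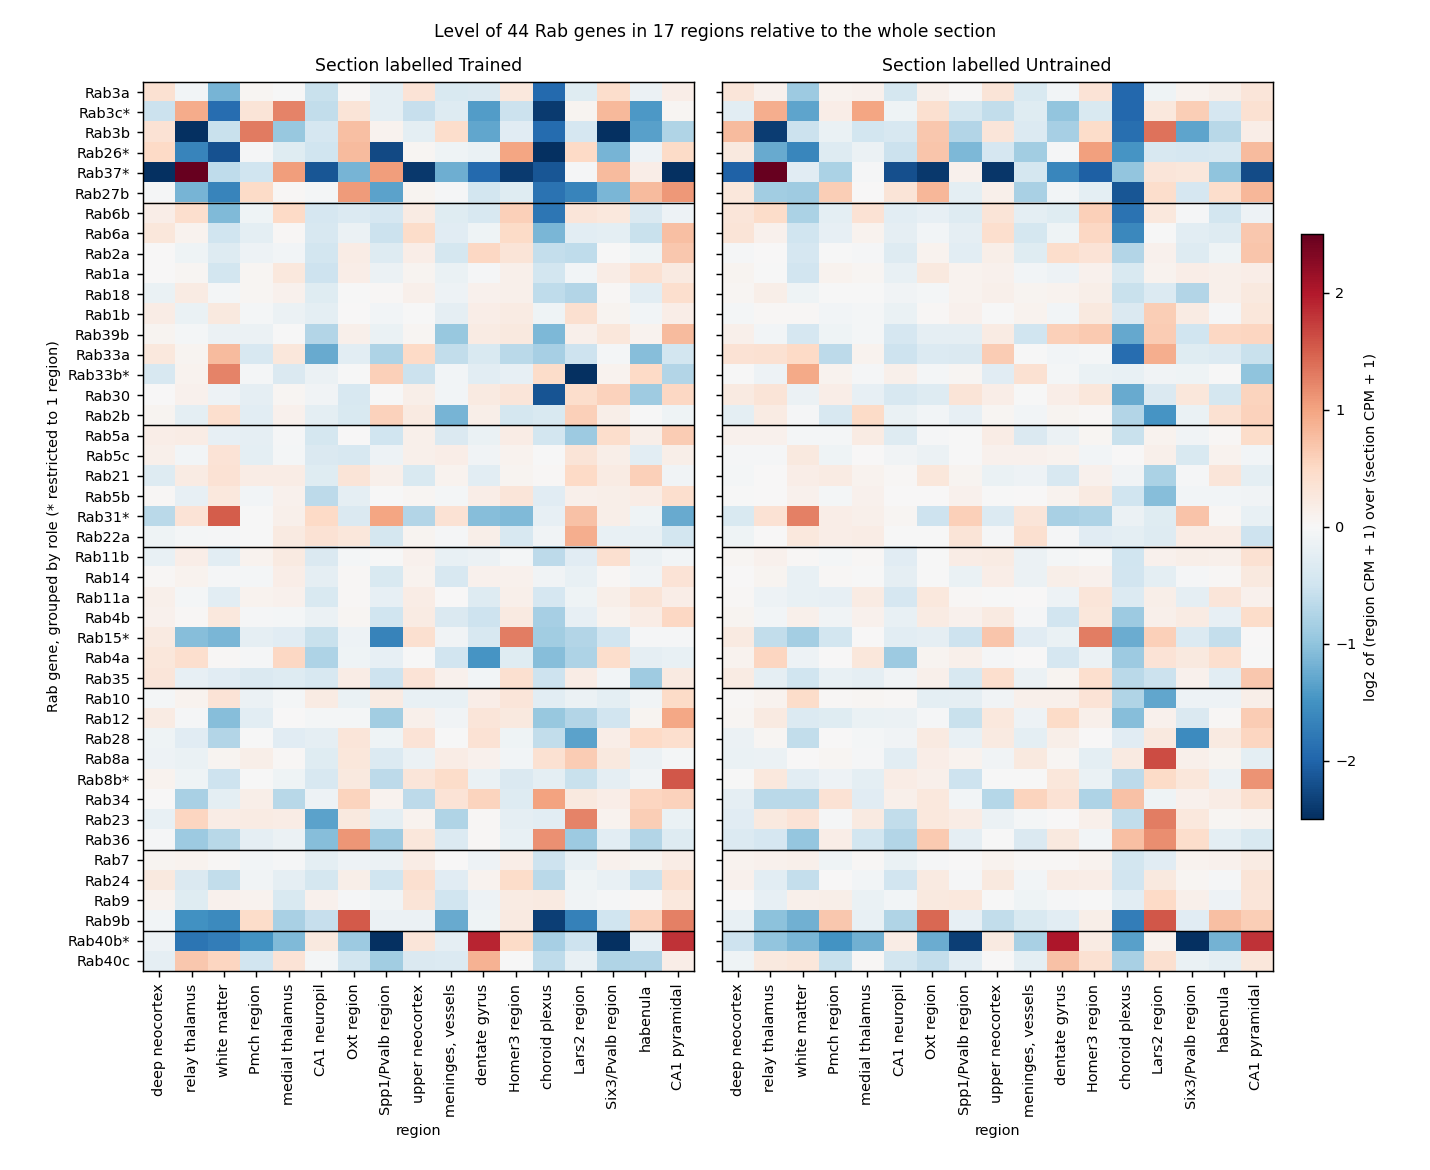
Levels of the 44 Rab genes with enough UMIs (rows, grouped by role, an asterisk marking the 8 restricted members) in 17 regions (columns) for each section, as log2 of region CPM + 1 over section CPM + 1, red for above and blue for below the section's own level. Most rows are pale, the choroid plexus column is blue for most members, and the dark red cells are Rab37 in sensory relay thalamus and Rab40b in dentate gyrus and the CA1 pyramidal layer.

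To separate general from region-restricted members, a member was called restricted where the same region was the highest in both sections, held at least 2 times the CPM of all other spots in each, and had at least 50 UMIs there in each. It was called general where its highest region stayed under 2 times its median region in both sections. With 50 UMIs in some region of each section, 44 members could be classed. Of these 8 were restricted, against a background of 17.7% of the 9346 genes that could be classed, and 26 were general, against 53.1%. The share of restricted Rab genes was therefore near that of all genes, and nothing is read from it about the family. The other 10 were intermediate. The general group held 8 of the 11 classed ER and Golgi members, 6 of the 7 of the recycling endosome, 5 of the 6 of the early endosome, 3 of the 4 of the late endosome and lysosome, 3 of the 8 of exocytosis and the cilium, and 1 of the 6 synaptic and secretory vesicle members, namely Rab3a. Of the 8 restricted members, Rab37, Rab26 and Rab3c came from that secretory group. The 26 general members peaked at 1.14 to 1.97 times their median region in Trained and 1.12 to 1.76 times in Untrained.

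Rab37 (chr11:115091431-115162236), a Rab of regulated secretion, had the sharpest profile. In sensory relay thalamus, the nuclei that pass touch and vision to the cortex, it had 133 CPM (interval 117 to 150, 254 UMIs) in Trained and 121 CPM (112 to 130, 683 UMIs) in Untrained, against 13.1 and 8.15 CPM over all other spots, or 10.2 and 14.8 times as much. The left and right sides gave 119 and 139 CPM in Trained and 118 and 123 CPM in Untrained. The next region reached 44.3 CPM in Trained and 23.8 CPM in Untrained, and the level fell to 2.07 CPM in deep neocortex and 2.68 CPM in upper neocortex. Every value of relay thalamus therefore lay far above those of every other region in both sections. Moran's I, a deposited score of how far neighbouring spots resemble each other, was 0.198 and 0.348 for Rab37, against member medians of 0.0326 and 0.0572.

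Rab3c (chr13:110054187-110280996), a synaptic vesicle Rab, was also a thalamic gene, but with a broader reach. Midline and medial thalamus led with 355 CPM (332 to 379) in Trained and 184 CPM (172 to 197) in Untrained, 2.72 and 2.18 times all other spots. Sensory relay thalamus had 283 and 174 CPM, and in Untrained these 2 thalamic regions had overlapping intervals. The Six3 and Pvalb region had 264 and 141 CPM, whereas white matter (39.0 and 36.5 CPM) and choroid plexus (27.5 and 22.8 CPM) had least. The low regions had similar levels in both sections, while the thalamic levels were higher in Trained.

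Within the Rab3 family, which acts in the docking and release of vesicles, the mix of paralogues depended on region. Over the whole section Rab3a made up 77.3% of Rab3 UMIs in Trained and 85.2% in Untrained, Rab3c 16.1% and 9.24%, Rab3b 5.95% and 4.94%, and Rab3d 0.622% and 0.617%. In midline and medial thalamus the share of Rab3c was 32.5% and 16.1%, and in relay thalamus 29.4% and 15.8%. Rab3b was scarce in relay thalamus, with 0.217% and 0.789% of Rab3 UMIs (2.09 and 8.68 CPM). In the Pmch region its share was 12.8% in Trained but 4.15% in Untrained, below the 4.94% of that whole section. Over the 17 regions the profiles of Rab3b and Rab3c were not opposed (Spearman's rho 0.08 and 0.16). Rab3b was intermediate because its leading region differed, with the Pmch region at 136 CPM in Trained but 43.9 CPM in Untrained, where the shallow Lars2 region led on 16 UMIs. Rab3d, known mainly from exocrine glands, had 5.76 and 6.15 CPM, and its highest region was the dentate gyrus in Trained (22 UMIs) and the CA1 pyramidal layer in Untrained (16.1 CPM, 25 UMIs).

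Rab40b (chr11:121356125-121388251), an unusual Rab with a SOCS box that joins a Cullin-based ubiquitin ligase, was highest in hippocampal cell layers. Dentate gyrus had 151 CPM (130 to 174) in Trained and 153 CPM (141 to 166) in Untrained, 4.40 and 5.24 times all other spots, with sides of 157 and 149 CPM and of 142 and 158 CPM. The CA1 pyramidal layer had 141 CPM (115 to 171) and 131 CPM (114 to 151), so the order of the 2 fields was within counting error, and with every spot weighted equally the CA1 pyramidal layer led in Trained. The Homer3 region had only 55.1 and 43.0 CPM and the CA1 neuropil 46.8 and 42.4 CPM, and the Spp1 and Pvalb region had 1.74 and 6.43 CPM. Of the regions not compared, the striatum had 82.1 CPM in Trained and the Vgll3 region 66.4 CPM in Untrained, so Rab40b was not confined to the hippocampus. Its nearest relative Rab40c was also highest in dentate gyrus, at 57.3 and 59.7 CPM, but at 1.93 and 1.75 times the other spots it was intermediate.

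The Homer3 region led for 2 restricted members. Rab15 (chr12:76797960-76822908), which acts between early and recycling endosomes and is known as a neural Rab, had 197 CPM (173 to 223) there in Trained and 179 CPM (165 to 194) in Untrained, 2.64 and 2.68 times the other spots, and was at 35.9 and 40.3 CPM in white matter. Rab26 (chr17:24527241-24534210), linked to secretory granules and to the turnover of synaptic vesicles, had 57.4 CPM (45.0 to 72.2) and 65.9 CPM (57.6 to 75.1), 2.10 and 2.22 times the others. That lead holds only among the compared regions, since the Cplx3 region had 98.8 CPM of Rab26 in Trained and the Vgll3 region 70.7 CPM in Untrained. With every spot weighted equally the Oxt region led in Trained. Exons of Rab26 also overlap those of Traf7 on the same strand, so reads of the 2 genes may be shared.

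Rab8b (chr9:66843664-66919687), which carries cargo from the Golgi to the plasma membrane and the cilium, led in the CA1 pyramidal layer with 91.3 CPM (70.9 to 116, 68 UMIs) in Trained and 61.8 CPM (50.1 to 75.5, 96 UMIs) in Untrained, 3.16 and 2.28 times the other spots. The sides differed in Trained, at 154 and 68.0 CPM on the left and right, and were at 57.3 and 63.8 CPM in Untrained. Its paralogue Rab8a did not share this profile (Spearman's rho over regions 0.05 and −0.07).

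White matter, the myelinated tracts, led for the last 2. Rab31 (chr17:65651729-65772752), which acts between the Golgi and endosomes, had 106 CPM (90.6 to 123) in Trained and 71.9 CPM (62.5 to 82.3) in Untrained, 3.25 and 2.65 times the other spots, and its lowest levels were in the CA1 pyramidal layer in Trained (14.8 CPM) and the dentate gyrus in Untrained (16.3 CPM). Rab33b (chr3:51483920-51496232), a Golgi Rab that also takes part in autophagosome formation, had 61.3 CPM (49.8 to 74.6) and 49.9 CPM (42.1 to 58.7), 2.63 and 2.06 times the others. The lower of its 2 section folds was 1.97 on the right side alone and 2.09 on the left. With interior spots only, the Spp1 and Pvalb region led for Rab33b in Trained, and after thinning to 1000 UMIs the habenula led in Untrained. In the CA1 pyramidal layer Rab33b had 14.8 and 12.2 CPM. The 5 microglial markers summed to 491 CPM in white matter of the Untrained section, their highest region there, and in Trained their highest level was 551 CPM in the Spp1 and Pvalb region, the region second to white matter for Rab31 (72.9 CPM). Their part in these levels was not tested.

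**Figure D3:**
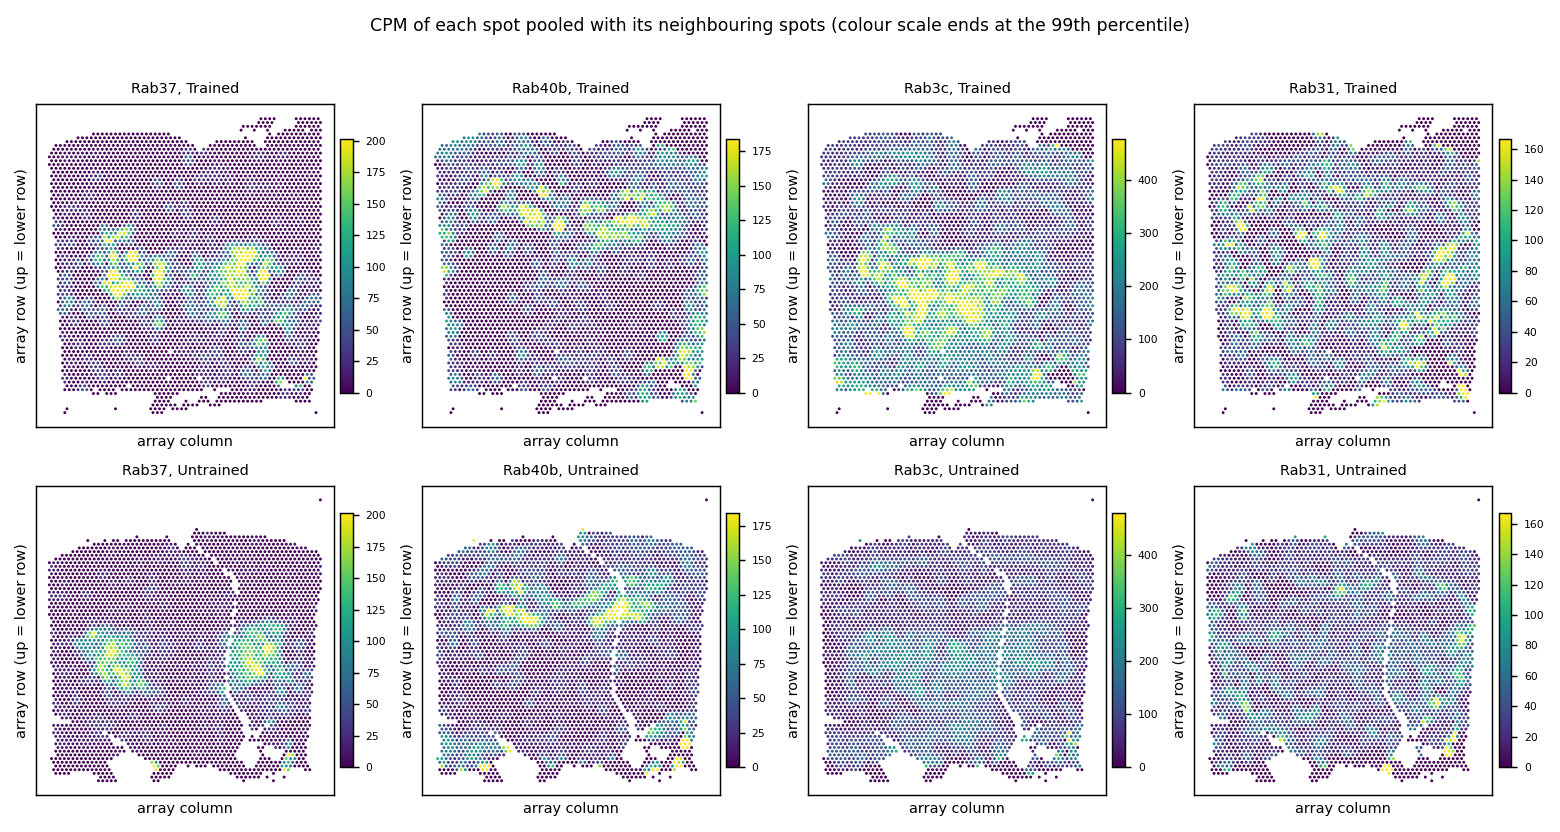
CPM of each spot pooled with its neighbours for Rab37, Rab40b, Rab3c and Rab31 (columns) at array positions in the Trained (top) and Untrained (bottom) section, with each colour scale ending at the 99th percentile. Rab37 fills the relay thalamus on both sides, Rab40b traces the dentate gyrus and CA1, Rab3c covers the thalamus more broadly and is brighter in Trained, and Rab31 follows the fibre tracts.

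**Figure D4:**
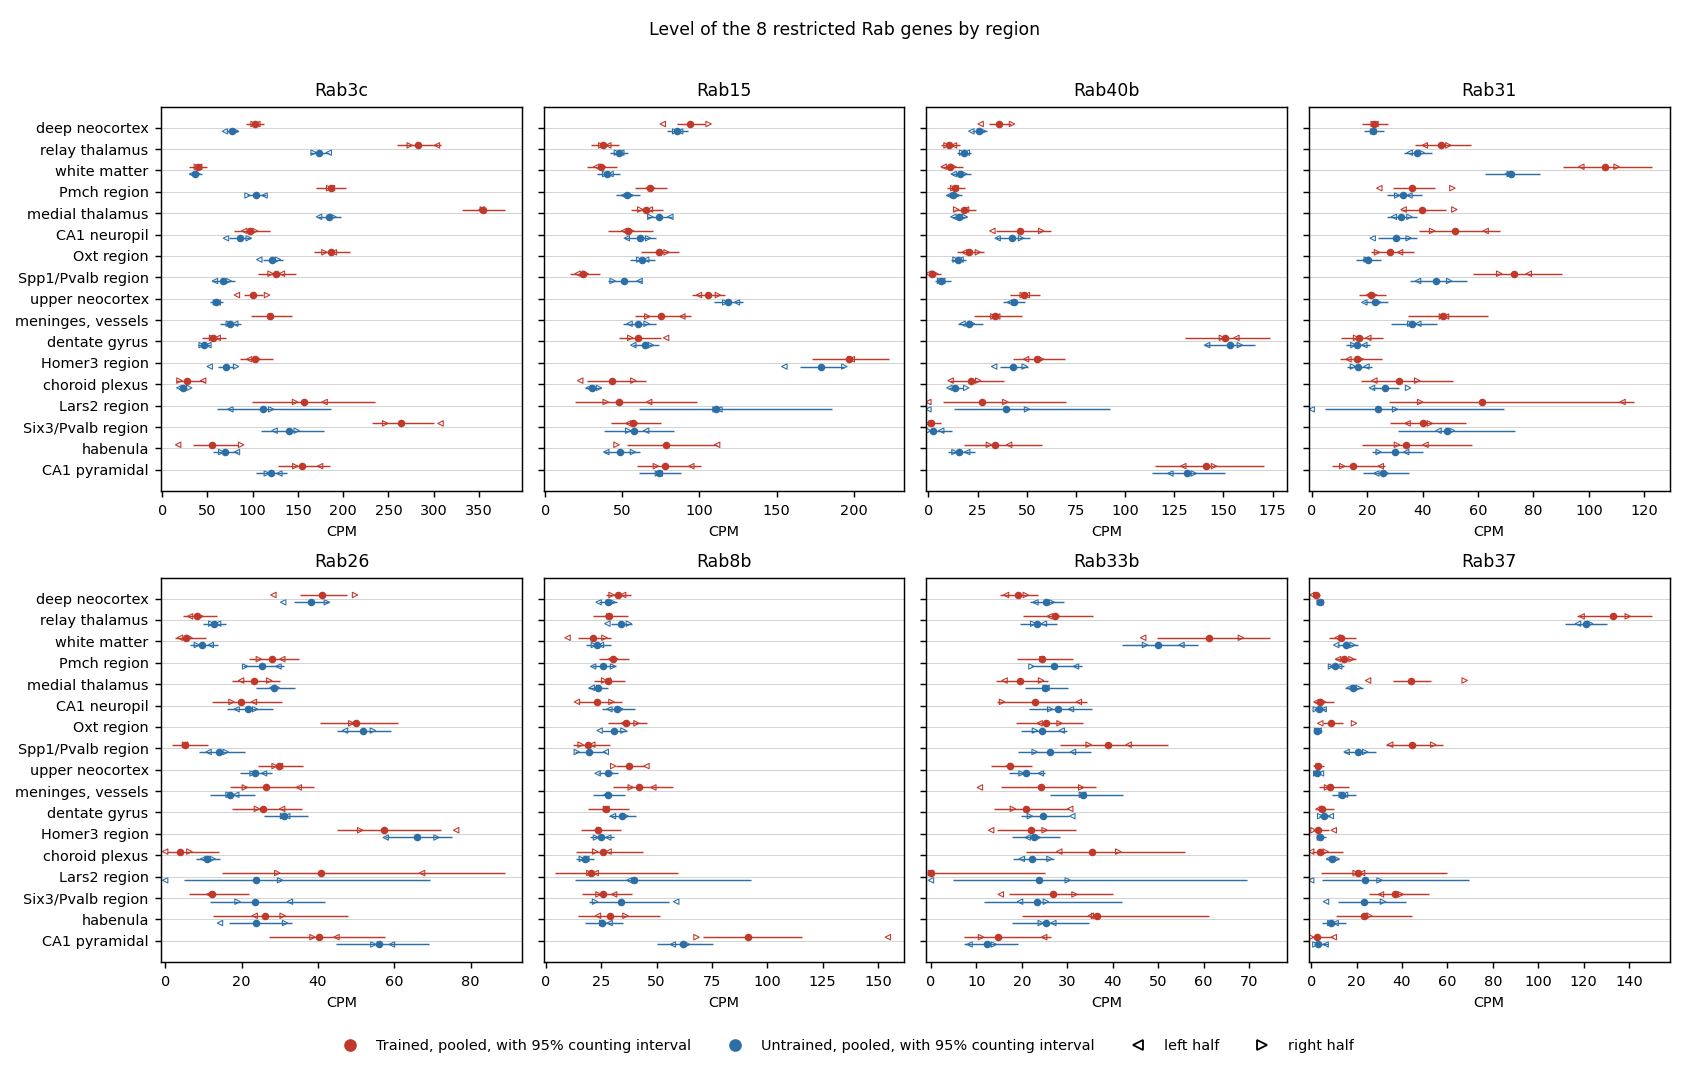
CPM of the 8 restricted Rab genes by region, as pooled values with 95% counting intervals for both sections, with open triangles for the left and right sides. Rab37 stands apart in relay thalamus (133 and 121 CPM), and Rab40b in dentate gyrus (151 and 153 CPM) and the CA1 pyramidal layer.

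Several members lay just outside the rule. Rab7b, an endosomal Rab distinct from Rab7, was highest in white matter in both sections, at 17.3 and 8.26 CPM or 16.1 and 5.26 times the other spots, but on 28 and 24 UMIs. Rab20 was highest in choroid plexus, at 9.82 CPM (3.19 to 22.9) on 5 UMIs in Trained and 30.7 CPM (25.8 to 36.3) on 136 UMIs in Untrained, against 0.586 and 1.37 CPM elsewhere. Rab38, known from pigment granules, was highest in relay thalamus on 5 and 26 UMIs, 6.56 and 6.82 times the rest. Rab12, of recycling to the lysosome, led in the CA1 pyramidal layer by 2.01 times in Trained and 1.59 times in Untrained. Rab9b led in the Oxt region by 3.48 times in Trained, where it had 72.6 CPM, and in Untrained that region had 59.0 CPM but the Lars2 region exceeded it on 8 UMIs. The 15 members with too few UMIs were Rab3d, Rab7b, Rab13, Rab17, Rab19, Rab20, Rab25, Rab27a, Rab29, Rab32, Rab38, Rab39, Rab42, Rab43 and Rab44, with 0 to 309 UMIs in Trained and 0 to 560 in Untrained.

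Regional profiles recurred in the other section to differing degrees. Over the 17 regions, Spearman's rho between sections was 0.30 to 0.90 for the restricted members, with a median of 0.78, −0.03 to 0.95 for the general ones (median 0.63) and 0.47 to 0.92 for the intermediate ones (median 0.70). Rab3c (0.90), Rab40b (0.87) and Rab26 (0.83) were the most alike of the restricted members, and Rab33b (0.37) and Rab8b (0.30) the least. These values describe 2 libraries and carry no test. On the left side alone, the highest region was no longer the same in both sections for Rab3c, Rab8b, Rab26 and Rab31, and at a fold of 3 in place of 2, Rab37 and Rab40b alone stayed restricted.

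The comparison the series was made for is that of the 2 sections. With at least 400 UMIs in all, 47 members could be compared over the whole section, and past a fold of 1.5, 2 were higher in Trained and 1 was lower. Over all 11460 genes with that minimum, 8.06% were higher and 4.75% lower by the same fold, so the Rab genes passed it no more often than genes at large. Their log2 ratios, Trained over Untrained, centred on 0.12 (median) with an SD of 0.29, where all genes centred on 0.07 with an SD of 0.43. Above 0 were 30 members and below it 17, where all genes had 6708 above and 4752 below. The ratio of the left to the right side within a section had a standard deviation over members of 0.18 in Trained and 0.10 in Untrained. Over all genes it was 0.20 and 0.21. The sides of a section share an animal, a library and a cut, so this spread is no yardstick for a difference between sections.

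Rab28 (chr5:41624976-41708157), a Rab of cilia and photoreceptors, was the highest in Trained, at 70.0 CPM (67.0 to 73.1) against 40.0 CPM (38.4 to 41.7) in Untrained, a log2 ratio of 0.81 (0.72 to 0.89). The ratio was 0.83 on the left and 0.79 on the right side, and it was above 0 in all 16 regions with at least 50 of its UMIs, from 0.46 in relay thalamus to 2.51 in the Six3 and Pvalb region, where Untrained had 6 UMIs. In the hippocampus Rab28 had 76.3 and 43.7 CPM, a log2 ratio of 0.80 (0.60 to 1.01). Although called general by region, Rab28 thus differed between the sections throughout the tissue.

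Rab3c was higher in Trained at 149 CPM (145 to 154) against 92.1 CPM (89.6 to 94.6), a log2 ratio of 0.70 (0.64 to 0.76), with 0.84 on the left and 0.59 on the right. It was above 0 in 15 of 16 regions. It was largest in midline and medial thalamus (0.95, interval 0.81 to 1.09) and in the Spp1 and Pvalb and the Six3 and Pvalb regions (0.90 in each), and in the habenula, the exception, it was −0.31 (−1.09 to 0.36). In the hippocampus it was 0.42 (0.24 to 0.59), under the fold, as was the mean of its ratios within regions. Rab3a, its abundant relative, went the other way with a log2 ratio of −0.25 (−0.27 to −0.22) and values below 0 in 16 of 17 regions, 0.10 (−0.07 to 0.27) in the Six3 and Pvalb region being the exception.

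Rab2b (chr14:52261759-52279545), of the ER and Golgi, was the member lower in Trained, with 13.1 CPM (11.8 to 14.5) against 23.9 CPM (22.7 to 25.2), a log2 ratio of −0.86 (−1.03 to −0.70). The sides gave −0.81 and −0.92, and all 15 regions with 50 UMIs were below 0. Its exons overlap those of Tox4 on the opposite strand. After each spot was thinned to 1000 UMIs, Rab2b was at −0.54 and no longer past the fold. Its abundant paralogue Rab2a had a ratio of 0.29.

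In some pairs the paralogues lay on opposite sides of 0, and in others, such as Rab11a (0.04) and Rab11b (0.24) or Rab8a (0.01) and Rab8b (0.12), on the same side. Rab1a was at 0.40 and above 0 in all 17 regions, while Rab1b was at −0.32 and below 0 in all 16 of its regions. Rab5a was at 0.29 against −0.11 for Rab5b and −0.16 for Rab5c, and Rab4b at 0.24 against −0.09 for Rab4a, whereas Rab6a (0.03) and Rab6b (−0.05) hardly differed. Of 42 members with at least 10 regions of 50 UMIs, 6 were above 0 in every such region, namely Rab1a, Rab21, Rab27b, Rab28, Rab30 and Rab39b, against 11.4% of all 8057 such genes, and 2, Rab1b and Rab2b, were below 0 in every one, against 5.18%. In the hippocampus 35 members could be compared, of which Rab28 and Rab30 (0.60, interval 0.30 to 0.89) were higher and 0 lower, against 8.54% and 4.1% of 5714 genes. Rab2b was not among the 35, since its 51 and 282 hippocampal UMIs together were under the minimum of 400, and it had 11.8 CPM there in Trained against 25.5 CPM in Untrained.

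The section ratio moved with the base composition of the transcript. Over the 47 members the Spearman correlation of the ratio with the G and C content of the longest transcript was −0.62, and over 11455 genes it was −0.42, while that with transcript length was 0.29 and 0.05. The transcript of Rab28 has 36.8% G and C, that of Rab3c 41.9% and that of Rab2b 44.5%. After the median ratio of genes of like G and C content, in 20 bins, was taken away, Rab28 stood at 0.46, Rab3c at 0.41 and Rab2b at −1.07, so that Rab2b alone stayed past the fold, against 4.85% of all genes higher and 4.70% lower after the same step. The part of base composition in the ratios was not tested further, and it cannot be told apart here from the animal, its treatment, the position of the cut or the depth.

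**Figure D5:**
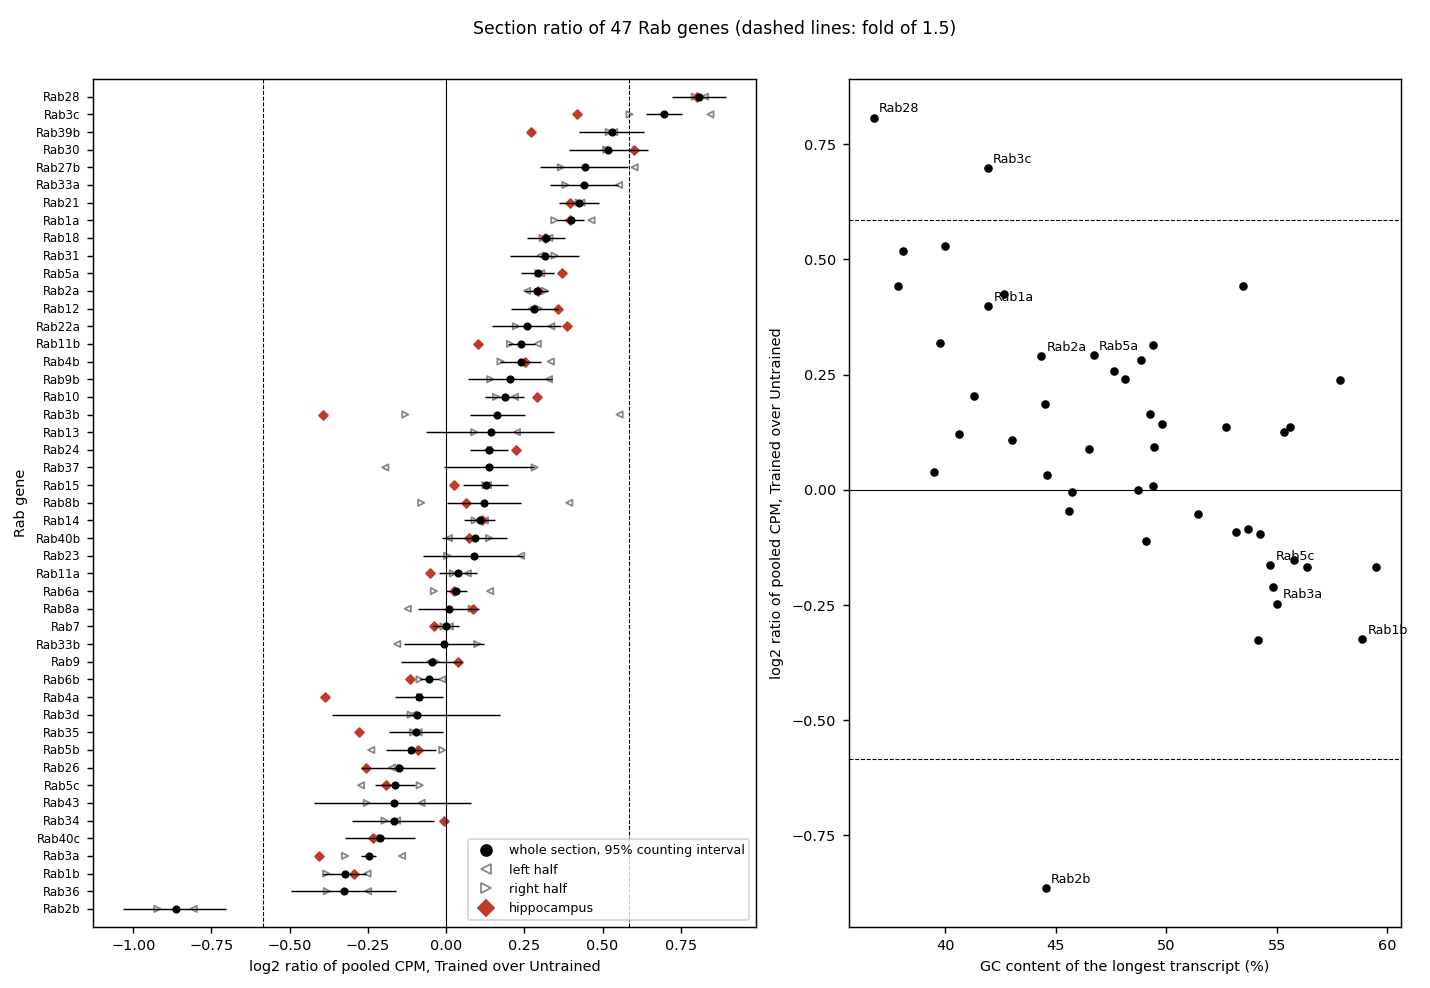
Left, log2 ratio of pooled CPM, Trained over Untrained, for 47 Rab genes, with 95% counting intervals for the whole section, grey triangles for the left and right sides and red diamonds for the hippocampus. Right, the same ratio against the G and C content of the longest transcript, where members low in G and C lie higher (Spearman's rho −0.62). Dashed lines mark the fold of 1.5, which Rab28, Rab3c and Rab2b pass.

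The proteins that run the Rab cycle were read from a list of 97 genes, and 70 of them could be classed by region. Of these 10 were restricted (background 17.7%), 39 general and 21 intermediate. None of the 7 classed genes for GDP dissociation inhibitors, escort and prenylation was restricted, while 4 of 20 GTPase activating proteins, 4 of 22 effectors and 2 of 19 exchange factors were. In the dentate gyrus, where Rab40b was highest, the restricted genes were Rilpl1, a binder of Rab8 and Rab10 at lysosome and cilium (227 and 133 CPM), and Rin1, an exchange factor for Rab5 (68.1 and 62.7 CPM). Rab3ip, the exchange factor for Rab8 also called Rabin8, led in the Homer3 region (88.9 and 73.6 CPM), and Rab11fip3, an effector of Rab11, in the CA1 pyramidal layer (88.6 and 71.5 CPM). Rims3, a gene of the presynaptic RIM family whose short protein lacks the Rab3-binding part, led in midline and medial thalamus, as Rab3c did, at 345 and 304 CPM. Among the activating proteins, Tbc1d9 led in choroid plexus (234 and 289 CPM), Sgsm1 in the Oxt region (96.3 and 82.0 CPM) and Tbc1d30 in upper neocortex (65.8 and 56.7 CPM). Scaled without mitochondrially encoded genes, Sgsm1 and Tbc1d5 were no longer restricted. Tbc1d5 and Micall1, both restricted to white matter like Rab31 and Rab33b, had too few UMIs for the naming rule and are named because their values were seen.

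Between sections, 81 cycle genes could be compared, and 7 were higher and 2 lower in Trained past the fold (backgrounds 8.06% and 4.75%), with a median log2 ratio of 0.12. Among the higher were Ankrd27, an exchange factor for Rab21 (0.85), Lrrk2, the kinase that phosphorylates a set of Rabs (0.77), Chm, the escort protein that presents Rabs for prenylation (0.74), Vps39 of the tethering complex that Rab7 recruits (0.64) and Tbc1d14 (0.60). The others past the fold were Tbc1d4 and Tbc1d8, higher, and Tbc1d13 and Tbc1d25, lower, which fall outside the naming rule. Scaled without mitochondrially encoded genes, or with the median ratio of all genes set to 0, Vps39 and Tbc1d14 fell below the fold. No exchange factor other than Ankrd27 and no effector other than Vps39 passed.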

How the data were processed

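Per the labels and the study's methods, a frozen coronal section of each of 2 brains was placed on a Visium slide, and the authors aligned and counted the reads with Space Ranger 2.0.0 on mm10, as the submitters' processing notes also state. The deposited files hold raw UMI counts per gene and spot, not normalized, and a table of Moran's I, a score of spatial autocorrelation computed by the authors' Space Ranger run. Its gene totals equalled the matrix sums. The files of image scale were not used. Total counts were 29515831 (Trained) and 59029131 (Untrained), so low members are measured less well in Trained. PCR duplicates were collapsed by UMI, and intervals cover counting error only.

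Spots with at least 500 UMIs (7582) were clustered jointly with Scanpy 1.11.5 and leidenalg 0.10.2 (resolution 1.5, seed 7, 30 components, 15 neighbours) on 1082 genes variable in both sections, without Rab and Rab cycle genes. Region names were given after the clusters were seen, from fixed markers except as said above, and CPM pooled all spots of a region. Poisson (CPM) and conditional binomial (ratio) intervals came from SciPy 1.17.1 at 95%, with a pseudocount of 0.5 UMI in ratios. Spots are not replicates and no p-value was computed. The scripts were tested on simulated data. Named were the restricted members, the 10 with the most UMIs over both sections, those past the fold of 1.5 on both sides, the Rab3 family, and up to 4 cycle genes a role by UMIs; others named were chosen after their values were seen. The members and lists were chosen with earlier results of these data known. Transcript and promoter properties came from the reference annotation (GRCm38) and RefSeq (GRCm38.p6). Sections were analysed in Python 3.11.15 with pandas 2.3.3 and numpy 2.4.6, and figures drawn with matplotlib 3.10.9.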

Additional observations from a re-analysis of the deposited data

How the results depend on the processing

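No paired analysis was possible because each group has 1 section. The 8 restricted members (17.7% of all genes) became 13 at a fold of 1.5 (27.1%) and 2 (Rab37 and Rab40b) at a fold of 3 (9.50%). They were 2 of 38 classed on the left side alone (all genes 11.6%) and 5 of 41 on the right side alone (16.1%), where without the UMI minimum 4 and 6 of the 8 kept their region and fold. With interior spots only there were 3 of 36 (9.57%), and after thinning each spot to 1000 UMIs 0 of 13 (17.9%), with 5 and 3 of the 8 keeping region and fold without the minimum. They were 7 to 9 (all genes 16.01% to 20.27%) with 20 UMIs, without mitochondrial genes, with equal spots or at other resolutions, Rab26 and Rab40b being lost with equal spots. With interior spots only the highest summed Rab level was 6512 CPM in Trained and 6268 CPM in Untrained, in the Homer3 region, since no spot of the CA1 pyramidal layer is interior. Without mitochondrial genes, an alternative added after seeing the data, it was 6500 CPM in Trained (CA1 pyramidal layer) and 6611 CPM in Untrained (Homer3 region). Between sections, 2 higher and 1 lower became 3 lower with a minimum of 100 UMIs (Rab20 and Rab32 added), 4 higher and 2 lower with equal spots, 4 higher and 0 lower after thinning, 1 higher with the mean of ratios within regions (Rab3c lost), and 0 higher and 0 lower at a fold of 2. Less the median of genes of like G and C content, which was chosen after seeing the data, 0 were higher and 1 lower, against 4.85% and 4.70% of all genes. Over the alternatives the log2 ratio was 0.46 to 0.83 for Rab28, 0.41 to 0.84 for Rab3c and −1.07 to −0.54 for Rab2b, and no direction reversed. Members of low level had wider counting intervals in Trained. The cycle genes restricted fell from 10 to 8 without mitochondrial genes, and those past the fold from 9 to 7 without them or with the all-gene median set to 0.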
